A study of Homo sapiens with 9 samples.

Results

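Lysosome and autophagy genes were followed in IMR90, a human fibroblast line from fetal lung, through dNTP depletion and the addition of a hairpin against p16. The set is a list of 44 genes, named by symbol, out of 64253 gene identifiers in the count files. A symbol with several identifiers was taken at the one with the most reads. RNA was sequenced from 9 libraries, 3 per group, named a, b and c. Per the labels, cells at population doubling 30 and 2% oxygen received a first pLKO.1 lentivirus and a second one 24 hours later, then puromycin at 3 ug/mL for 7 days. The control group carried vector only, called empty in the sample labels and GFP in the treatment protocol. The shRRM2 group carried 1 hairpin against RRM2, which encodes a ribonucleotide reductase subunit, and is labelled senescent. The shRRM2/shp16 group carried the RRM2 hairpin and 1 hairpin against p16 (CDKN2A), and is labelled as having bypassed senescence. All groups were infected and selected, and no group carried the p16 hairpin alone. The labels do not say whether a, b and c were separate infections, so the p-values measure only the spread between these libraries.

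Lysosomes are acidic compartments that break down proteins, lipids and sugar chains. A proton pump, the V-ATPase, acidifies them, and hydrolases carried in from the Golgi do the cutting. Autophagy delivers cytoplasm to them in vesicles built by the ATG proteins. Many of these genes share a promoter element bound by the transcription factors TFEB, TFE3 and MITF. Senescent fibroblasts are known for enlarged lysosomes, and the beta-galactosidase stain used to recognise them reads the product of GLB1.

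Gene-assigned counts ranged from 15770895 to 24873291 per library. RRM2 was at 485 ± 5.23 CPM (counts per 1e+06 reads, TMM-scaled; mean ± SD, n = 3) in control, 62.1 ± 1.86 in shRRM2 and 177 ± 3.0 in shRRM2/shp16. RRM2 was therefore not at the same level in the 2 hairpin groups, and their comparison is not one of p16 alone. CDKN2A was at 6.019 ± 0.113 CPM in control, 6.503 ± 0.464 in shRRM2 and 4.28 ± 0.321 in shRRM2/shp16. Of the uniquely aligned reads, 17.6% to 18.9% were assigned to no annotated feature in control, 27.7% to 28.8% in shRRM2 and 23.5% to 24.4% in shRRM2/shp16. The counts do not tell whether such reads lay in introns, on the other strand or between genes. Their share moved with the groups, and its part in the results was not tested. All 10 fibroblast markers examined were expressed, with summed levels of 37940 to 39110 CPM in control, 40940 to 41890 in shRRM2 and 29470 to 30140 in shRRM2/shp16. COL1A1 and FN1 made up most of this sum, and single markers differed from it: 3 were called higher and 6 lower in shRRM2 against control, and 2 higher (COL3A1 and PDGFRA) and 5 lower in shRRM2/shp16 against shRRM2. The part of these changes in the results was not tested. The 8 macrophage markers summed to 1.55 to 1.93 CPM in control, 2.54 to 2.87 in shRRM2 and 1.64 to 2.11 in shRRM2/shp16, with AIF1 and MARCO at 0 throughout. AIF1 has 6 identifiers in the files and PTPRC has 2. Reads that aligned to more than 1 place were not counted, so both may be undercounted, and the 0 of AIF1 does not show its absence. The 4 epithelial markers summed to at most 2.15 CPM, with SFTPC and SCGB1A1 at 0. The 4 endothelial ones summed to 2.56 to 3.35 CPM in control, 2.48 to 3.745 in shRRM2 and 5.23 to 5.38 in shRRM2/shp16. In such bulk samples fewer cells of a type and less RNA per cell cannot be told apart.

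Promoter stretches are shown first because several of these genes carry the element that TFEB, TFE3 and MITF bind. RefSeq promoter windows on GRCh38.p14, from 250 bases before to 50 after a gene start, were found for 33 of the 44 genes. HEXA, MANBA, ASAH1, PSAP, LAMP2, CTSB, CTSK, CTSO, CTSS, ATP6V1A and ATP6V1H had no entry. The E-box CACGTG, the longer TCACGTGA that contains it, and the 10-letter CLEAR form (TCACGTGA with G before and C after) were searched on both strands. At least 1 window held CACGTG for 8 of the 33 genes (24.2%), against 8.77% of 27305 genes with windows of that length. TCACGTGA was found for 5 of the 33 (15.2%), against 1.18% of all genes, and the CLEAR form for 2 (6.06%), against 0.421%. The 8 genes were NEU1, CTSD, CD63, LAMP1, ATP6V0D1, GAA, MCOLN1 and CTSA. Of these 8, 6 are printed here from bases before the start, 5′ to 3′ on the gene's strand, with CACGTG or TCACGTGA in capitals.
LAMP1 (chr13:113297027-113297236, plus strand): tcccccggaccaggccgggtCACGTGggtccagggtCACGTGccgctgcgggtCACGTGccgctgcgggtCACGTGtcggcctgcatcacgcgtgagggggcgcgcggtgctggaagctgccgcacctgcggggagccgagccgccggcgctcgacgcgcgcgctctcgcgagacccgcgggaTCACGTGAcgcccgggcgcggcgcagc
MCOLN1 (chr19:7522563-7522623, plus strand): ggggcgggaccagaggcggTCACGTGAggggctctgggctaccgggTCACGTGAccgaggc
GAA (chr17:80101485-80101575, plus strand): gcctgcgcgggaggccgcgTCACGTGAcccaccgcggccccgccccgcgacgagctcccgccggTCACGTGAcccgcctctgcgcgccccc
CTSA (chr20:45891273-45891334, plus strand): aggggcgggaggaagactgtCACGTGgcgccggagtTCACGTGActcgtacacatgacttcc
ATP6V0D1 (chr16:67481191-67481236, minus strand): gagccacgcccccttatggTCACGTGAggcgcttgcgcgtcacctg
CTSD (chr11:1763949-1763994, minus strand): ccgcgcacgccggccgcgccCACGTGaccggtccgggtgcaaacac

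LAMP1 stood out by its 5 copies of CACGTG before the start, the most among these 33 genes. GAA and MCOLN1 held the CLEAR form. A match describes the letters in the window and says nothing about binding in these cells.

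Of the 44 genes, 42 had enough reads to be tested, and 41 of them were above the cutoff of 0.557 CPM in every library. The other tested gene, CTSS, was below it in all control libraries and entered through the hairpin groups, so it had to be higher there. Counts are therefore also given over the other 41. NEU1 (sialidase) and CTSO (a cysteine cathepsin) were not tested. In the files 8 identifiers carry the name NEU1, with at most 1 read in any library at the best of them. CTSO has 2 identifiers, both at 0 reads in all 9 libraries. Reads that aligned to more than 1 place were not counted, and nothing is said here of the expression of these genes.

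In shRRM2 against control, most of the genes rose. Of the 42 tested, 35 passed an adjusted p of 0.05 (83.3%), where 60.9% of all 16561 tested genes did. They split into 30 higher and 5 lower, or 71.4% and 11.9%, against 29.0% higher and 31.8% lower among all tested genes. The median log2 fold change was 0.35, and 0.00 over all tested genes. The changes were mostly small: 2 of the 42 changed at least 2-fold, CTSS and FUCA1, where 10.1% of all genes did. Over the 41 genes without CTSS, 29 were higher and 5 lower (median 0.32). The 5 called lower were GUSB, PPT1, CTSC, ATG5 and GAA, of which GAA was not stable.

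In shRRM2/shp16 against shRRM2 the genes divided. 36 of 42 passed the threshold (85.7%), against 61.1% of all genes, with 14 higher and 22 lower. Among all tested genes 31.9% were higher and 29.1% lower. The median was -0.16, and 0.01 over all genes. Over the 41 without CTSS, 13 were higher and 22 lower (median -0.19). With limma on the authors' RPKM values in 9 columns, 14 genes were called lower in place of 22. Among these columns that of shRRM2 c does not match its count file, and the effect of this was not tested. CTSS, CTSK, CTSC and GAA were at least 2-fold higher and FUCA1 at least 2-fold lower, where 11.8% of all genes moved that far. All 8 tested genes of the lysosomal membrane and the proton pump fell, while 5 of 8 autophagy genes rose.

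In shRRM2/shp16 against control 31 of 42 passed (73.8%), against 62.4% of all genes. Of these 22 were higher and 9 lower, where 30.0% and 32.4% of all genes were. The median was 0.13, and 0.01 over all genes. Over the 41 without CTSS, 21 were higher and 9 lower (median 0.11). Limma on 9 RPKM columns called 4 lower in place of 9. CTSS, CTSK, GABARAPL1 and SQSTM1 were at least 2-fold higher and none was 2-fold lower, against 12.6% of all genes in either direction. The 3 comparisons share libraries in pairs, so they are given side by side and not as separate evidence.

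**Figure D1:**
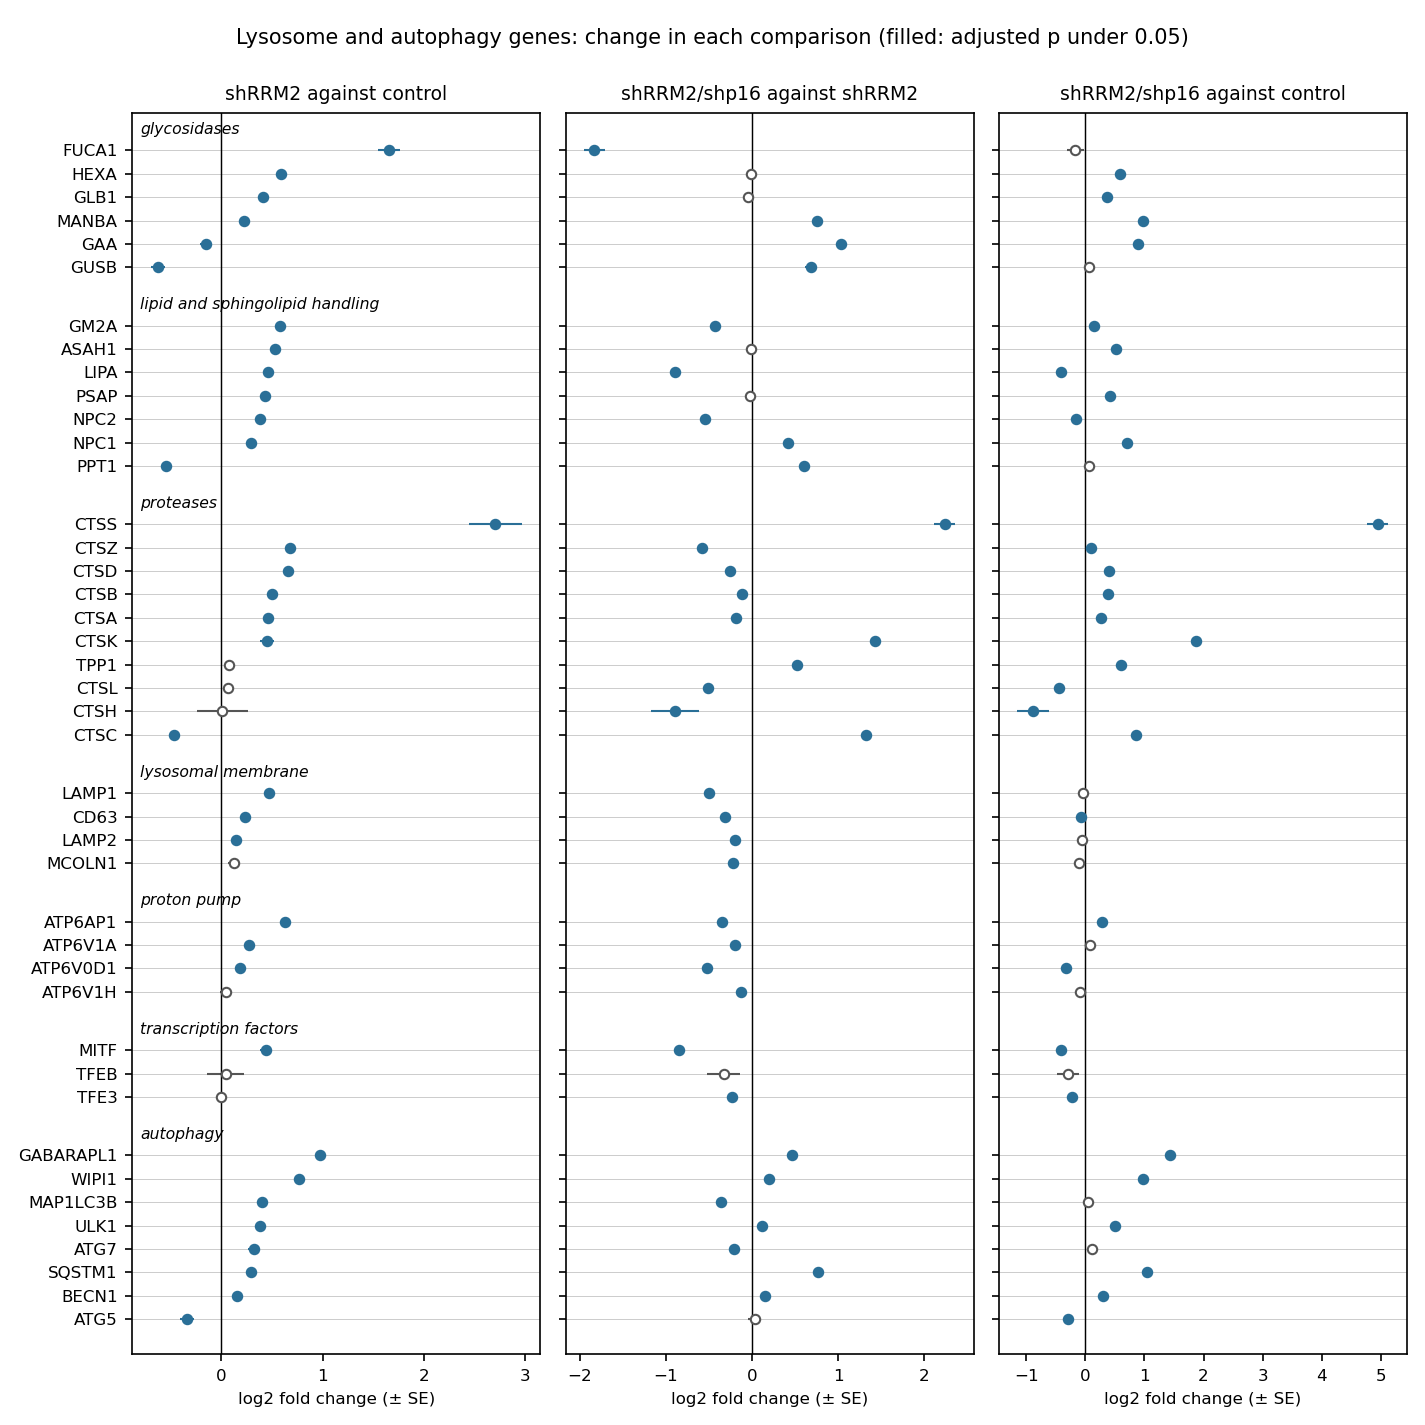
The log2 fold change (x axis, with SE) of each of the 42 tested genes (y axis, grouped by role) in the 3 comparisons, from a fit to all 9 libraries. Filled points passed an adjusted p of 0.05. CTSS lies farthest to the right in all 3 panels, and every point of the lysosomal membrane and proton pump rows is left of 0 in the middle panel.

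**Figure D2:**
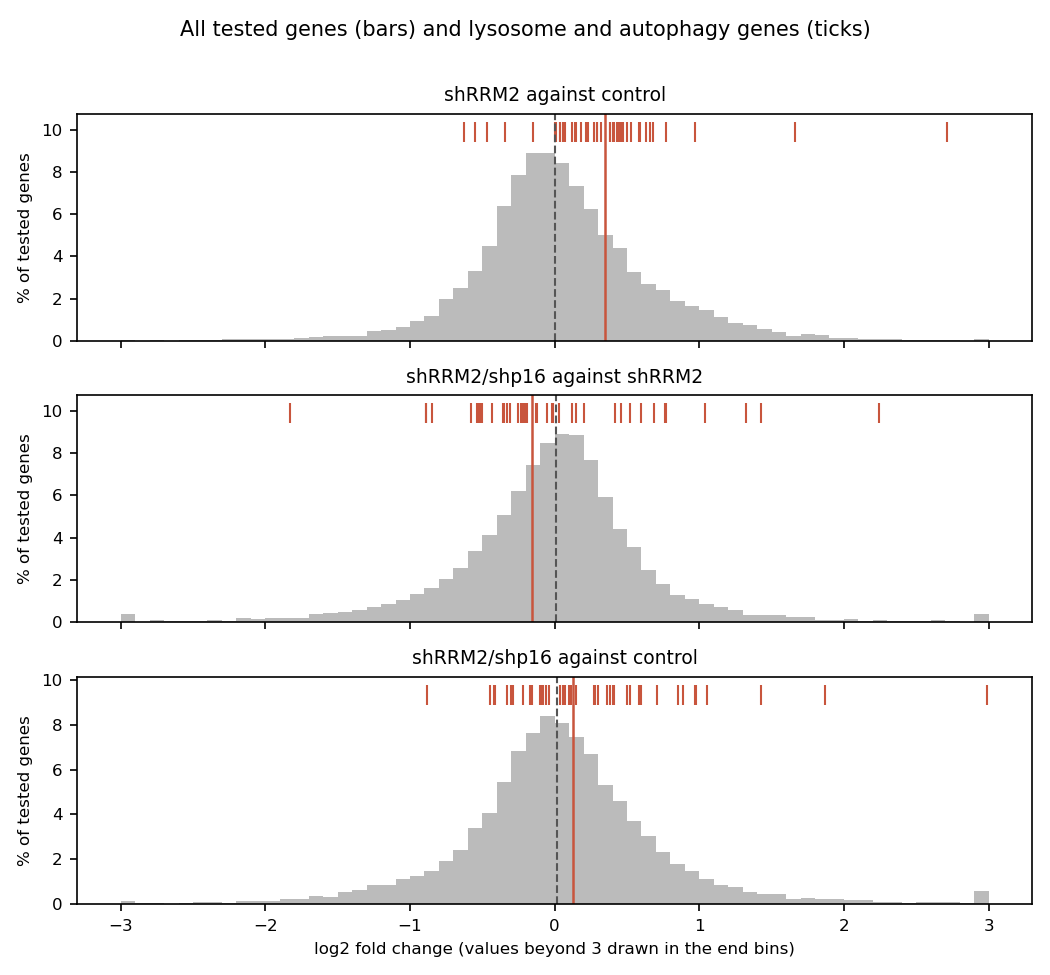
Histograms of the log2 fold change (x axis) over 16561 tested genes, as percent of genes (y axis), with the 42 lysosome and autophagy genes as ticks; values beyond 3 are drawn at the ends. The dashed line is the median of all tested genes and the solid line the median of the 42, at 0.35, -0.16 and 0.13 from top to bottom.

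The glycosidases cut sugar chains from glycolipids and glycoproteins. GLB1 (ENSG00000170266; GRCh38 chromosome 3, 32996608 to 33097230, minus strand), the beta-galactosidase gene, was at 61.6, 62.0 and 60.5 CPM in control libraries a, b and c. It was at 80.2, 86.9 and 77.8 CPM in shRRM2 and at 81.8, 77.9 and 76.2 in shRRM2/shp16. Both hairpin groups lay above control without overlap, and overlapped each other. The rise was 0.41 ± 0.04 on the log2 scale (SE; edgeR adjusted p 8.3e-11) in shRRM2 and 0.36 ± 0.04 (1.8e-09) in shRRM2/shp16. The difference between the 2 hairpin groups was -0.05 ± 0.04 and did not pass the threshold (adjusted p 0.276). HEXA, the alpha subunit of beta-hexosaminidase, had the same course, from 48.9 ± 3.92 CPM in control to 74.0 ± 0.971 in shRRM2 and 73.6 ± 2.21 in shRRM2/shp16. TMPPE shares 83 exonic bases with GLB1 on the same strand.

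FUCA1 (ENSG00000179163; chromosome 1, 23845077 to 23868294, minus strand) encodes the fucosidase that removes fucose from glycoproteins. Its levels were 4.57, 3.91 and 5.84 CPM in control, 14.2, 16.1 and 14.6 in shRRM2, and 4.17, 3.69 and 4.78 in shRRM2/shp16. The shRRM2 libraries stood alone, at 1.66 ± 0.11 on the log2 scale (adjusted p 1.1e-16) against control. It then fell by 1.83 ± 0.12 (6.7e-18) with the p16 hairpin added, to a level whose libraries overlapped control. The difference between shRRM2/shp16 and control was -0.17 ± 0.14 (adjusted p 0.296).

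GUSB, the beta-glucuronidase gene, went the other way. It was at 31.6, 31.1 and 31.3 CPM in control, 19.8, 22.4 and 18.4 in shRRM2 and 33.5, 32.8 and 31.8 in shRRM2/shp16, so only the shRRM2 libraries were low among these 9. Its log2 fold changes were -0.63 ± 0.07 (adjusted p 2.8e-11) for shRRM2 over control and 0.69 ± 0.07 (1.6e-12) in shRRM2/shp16 against shRRM2. GUSB has several pseudogene copies in the genome, and reads shared with them were left uncounted. GAA, which breaks down glycogen, and MANBA, the beta-mannosidase gene, were highest in shRRM2/shp16. GAA was at 29.5 ± 1.43, 26.8 ± 1.32 and 55.0 ± 1.61 CPM in control, shRRM2 and shRRM2/shp16, and MANBA at 44.04 ± 1.01, 51.4 ± 0.787 and 87.1 ± 0.393. Against shRRM2 the log2 fold changes were 1.04 ± 0.05 for GAA and 0.76 ± 0.04 for MANBA (adjusted p 8.4e-21 and 6.7e-20). The small decrease of GAA in shRRM2 against control, -0.15 ± 0.06 (adjusted p 0.0337), was not stable. It turned direction only with limma on 9 RPKM columns (0.04), where the column of shRRM2 c does not match its count file. It was not past the threshold with RLE factors (-0.13) or DESeq2 (-0.13). With each library left out it stayed negative (-0.186 to -0.103). It was -0.10, -0.15, -0.12 and -0.12 and not past the threshold without control a, control b, shRRM2 b or shRRM2 c.

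The next group handles lipids. PSAP encodes prosaposin, the precursor of the saposins that present sphingolipids to their hydrolases, and ASAH1 encodes acid ceramidase. GM2A is the activator that lifts GM2 ganglioside to hexosaminidase. PSAP was at 460 ± 14.4, 618 ± 23.9 and 611 ± 17.1 CPM in control, shRRM2 and shRRM2/shp16. ASAH1 was at 51.9 ± 4.58, 74.4 ± 0.913 and 73.9 ± 0.537 CPM. Both rose in shRRM2, by 0.43 ± 0.03 and 0.53 ± 0.05 on the log2 scale, and their hairpin groups overlapped each other as for GLB1. GM2A rose by 0.58 ± 0.04 in shRRM2 and was lower in shRRM2/shp16, at -0.43 ± 0.04 against shRRM2.

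LIPA and the NPC proteins move cholesterol out of the lysosome. LIPA (ENSG00000107798; chromosome 10, 89213569 to 89414557, minus strand), the acid lipase that frees cholesterol from its esters, was at 35.3, 34.7 and 36.8 CPM in control, 52.0, 48.6 and 46.4 in shRRM2, and 25.4, 27.1 and 27.0 in shRRM2/shp16. The 3 groups were separate, with shRRM2 highest and shRRM2/shp16 lowest. Its log2 fold changes were 0.46 ± 0.05 for shRRM2 over control, -0.89 ± 0.06 in shRRM2/shp16 against shRRM2 and -0.42 ± 0.06 in shRRM2/shp16 against control (adjusted p 5.0e-10, 4.6e-18 and 1.7e-08). NPC1 and NPC2, which pass the freed cholesterol on together, parted. NPC1 rose from 99.0 ± 3.07 CPM in control to 122 ± 1.04 in shRRM2 and 162 ± 1.37 in shRRM2/shp16. NPC2 rose from 72.0 ± 1.1 to 94.0 ± 2.23 CPM in shRRM2 and was at 64.7 ± 2.68 in shRRM2/shp16. Against shRRM2 the log2 fold changes were 0.42 ± 0.03 for NPC1 and -0.54 ± 0.04 for NPC2 (adjusted p 2.3e-14 and 3.1e-15). On the authors' log2 RPKM values, limma no longer called NPC2 lower than control, with -0.05 in place of -0.16.

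PPT1, which removes fatty acids from proteins, was at 53.7, 51.9 and 50.3 CPM in control, 37.8, 35.5 and 33.6 in shRRM2 and 54.4, 55.1 and 52.8 in shRRM2/shp16. The shRRM2 libraries were the low ones, with -0.55 ± 0.05 against control and 0.60 ± 0.05 for shRRM2/shp16 against shRRM2 (adjusted p 1.6e-12 and 6.5e-14). CAP1, on the opposite strand, covers 23.4% of the exonic bases of PPT1 and was read at a mean of 589 CPM over the 9 libraries. The strand setting of the counting is not given in the sources used here, so reads of that stretch are not assigned with certainty.

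Among the proteases, 3 papain-type cathepsins were highest in shRRM2/shp16. CTSS (ENSG00000163131; chromosome 1, 150730196 to 150765957, minus strand), cathepsin S, is best known from antigen-presenting cells. It was at 0.461, 0.503 and 0.536 CPM in control, on 9 reads at the lowest, at 4.06, 3.17 and 2.64 in shRRM2, and at 16.5, 16.3 and 13.5 in shRRM2/shp16. The 3 groups were separate, each higher than the one before. The log2 fold change was 2.24 ± 0.12 in shRRM2/shp16 against shRRM2 (adjusted p 6.3e-20). Over control it was 2.71 in shRRM2 and 4.95 in shRRM2/shp16, given as a description with no p, since CTSS passed the filter on low counts only through the hairpin groups. CTSS exceeded the sum of the 8 macrophage markers in every shRRM2/shp16 library, where that sum was 1.64 to 2.11 CPM. In shRRM2 it overlapped that sum (2.54 to 2.87 CPM), and in control it lay below it (1.55 to 1.93 CPM). AIF1 and PTPRC may be undercounted in that sum, as said above. Which cells the CTSS reads came from was not tested. Per length CTSS stayed low: at 3.66 RPKM (CPM per kilobase, TMM-scaled) it ranked 37 of 42 in shRRM2/shp16, after rank 42 in control.

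CTSK, cathepsin K, a collagen-cutting protease known from osteoclasts, lies next to CTSS on chromosome 1 (150796208 to 150808323). It was at 14.2, 13.3 and 12.8 CPM in control, 18.7, 18.6 and 17.9 in shRRM2 and 48.9, 50.4 and 49.0 in shRRM2/shp16. It too was separate in all 3 groups, with log2 fold changes of 0.45 ± 0.07 for shRRM2 over control and 1.43 ± 0.06 in shRRM2/shp16 against shRRM2 (adjusted p 1.4e-06 and 2.1e-24). CTSC, or dipeptidyl peptidase 1, activates serine proteases of immune cells. It was at 127, 121 and 123 CPM in control, 93.9, 88.0 and 85.6 in shRRM2 and 225, 218 and 224 in shRRM2/shp16. CTSC thus fell in shRRM2, with -0.47 ± 0.04, and was higher than both other groups in shRRM2/shp16, by 1.32 ± 0.04 against shRRM2 (adjusted p 1.2e-14 and 2.1e-31).

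CTSB, CTSD, CTSA and CTSZ are abundant cathepsins with broad roles in protein breakdown. CTSB, the most abundant of the 10 tested proteases per length in each group (113, 160 and 148 RPKM), was at 842 ± 31.1, 1187 ± 22.3 and 1096 ± 10.3 CPM. CTSD was at 105 ± 0.967, 166 ± 1.02 and 139 ± 2.75 CPM, and CTSA at 195 ± 4.41, 269 ± 7.02 and 235 ± 5.58. CTSZ was at 77.8 ± 1.3, 125 ± 6.29 and 83.5 ± 2.53 CPM. All 4 rose in shRRM2, with log2 fold changes from 0.46 (CTSA) to 0.68 (CTSZ), and all 4 were lower in shRRM2/shp16 than in shRRM2, with -0.12 ± 0.03 for CTSB at the smallest and -0.58 ± 0.04 for CTSZ at the largest. On the authors' RPKM values in all 9 columns, limma no longer called the decreases of CTSB (-0.02) and CTSD (-0.10), and with the 8 columns that match their count files CTSB stayed below the threshold (-0.06). CTSZ in shRRM2/shp16 against control (0.10 ± 0.04, adjusted p 0.0324) was not past the threshold without control b (0.10), control c (0.09) or shRRM2/shp16 a (0.08).

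CTSL and CTSH were low in shRRM2/shp16. CTSL, cathepsin L, was at 84.5, 86.9 and 90.0 CPM in control, 87.5, 88.7 and 95.3 in shRRM2 and 64.0, 63.0 and 64.4 in shRRM2/shp16. Control and shRRM2 overlapped, and the last group lay below both, at -0.51 ± 0.04 against shRRM2 (adjusted p 4.7e-14) and -0.45 ± 0.04 against control (1.1e-12). CTSH, an aminopeptidase, was barely read, at 1.72, 1.96 and 1.19 CPM in control, 1.52, 2.19 and 1.21 in shRRM2 and 0.740, 1.05 and 0.860 in shRRM2/shp16. Its decrease against shRRM2 was -0.89 ± 0.28 (adjusted p 0.00615), and without shRRM2 b it was -0.61 and no longer past the threshold. On 9 RPKM columns limma did not call it against shRRM2 (-0.14) or control (-0.13). TPP1, a peptidase that trims tripeptides, was at 103 ± 3.32, 108 ± 2.96 and 155 ± 3.46 CPM and rose in shRRM2/shp16, by 0.52 ± 0.04 against shRRM2 (adjusted p 7.2e-17). Its value in shRRM2 against control, 0.07 ± 0.04, did not pass the threshold, but reached it at 0.10 without shRRM2 c.

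**Figure D3:**
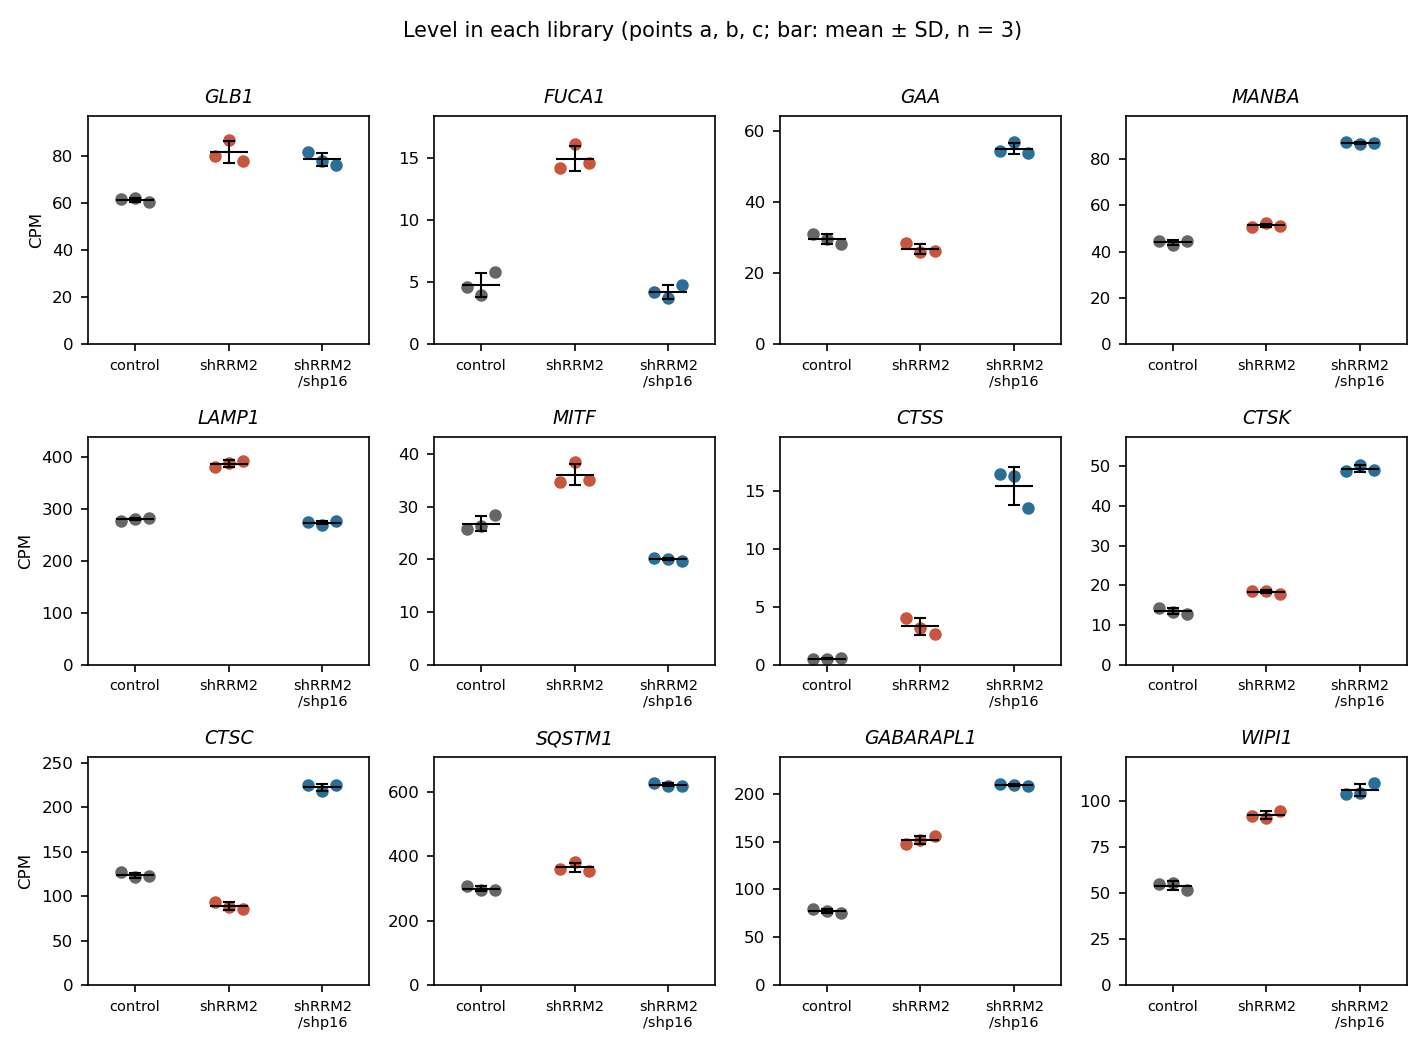
TMM-scaled CPM (y axis, from 0) of 12 genes in the 3 libraries of each group (points), with the mean and SD (bars). GLB1 is raised alike in both hairpin groups, FUCA1, LAMP1 and MITF peak in shRRM2, and GAA, MANBA, CTSS, CTSK, CTSC and SQSTM1 are highest in shRRM2/shp16.

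Of the 4 lysosomal membrane genes, 3 rose in shRRM2 against control, and all 4 were lower in shRRM2/shp16 than in shRRM2. Among all tested genes 29.0% were called higher in the first comparison and 29.1% lower in the second. LAMP1 (ENSG00000185896; chromosome 13, 113297241 to 113323672, plus strand) encodes a main glycoprotein of the lysosomal membrane. It was at 277, 281 and 282 CPM in control, 380, 388 and 392 in shRRM2 and 274, 269 and 276 in shRRM2/shp16. The shRRM2 libraries lay above all others, with log2 fold changes of 0.47 ± 0.03 against control (adjusted p 1.1e-18) and -0.50 ± 0.03 for shRRM2/shp16 against shRRM2 (6.1e-20). The tetraspanin CD63, the most abundant of the 42 genes per length in every group, was at 678 ± 20.3, 794 ± 15.1 and 640 ± 12.3 CPM. LAMP2, needed for fusion with autophagosomes, was at 127 ± 6.12, 140 ± 8.45 and 122 ± 3.08 CPM. The calcium channel MCOLN1 was at 24.8 ± 0.573, 27.0 ± 0.882 and 23.1 ± 0.529 CPM. CD63 and LAMP2 rose in shRRM2 (0.23 ± 0.03 and 0.14 ± 0.04), MCOLN1 did not pass the threshold (0.12 ± 0.06, adjusted p 0.0824), and all 4 genes fell in shRRM2/shp16 against shRRM2. Against control, LAMP1 was at -0.04 ± 0.03 in shRRM2/shp16 (adjusted p 0.271) and CD63 at -0.08 ± 0.03 (0.00705). The direction of these last 2 values differed between methods: with limma on the authors' RPKM values in 8 columns they were 0.07 and 0.02, and with RLE factors on the counts -0.03 and -0.08. The RPKM values carry no TMM factor, which was 0.961 to 0.972 in the control libraries and 1.037 to 1.040 in those of shRRM2/shp16. The part of this scaling in the 2 reversals was not tested. Without shRRM2/shp16 b the CD63 value was -0.06 and not past the threshold, and limma on all 9 RPKM columns no longer called MCOLN1 lower in shRRM2/shp16 than in shRRM2 (-0.06).

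Of the 4 proton pump genes, 3 rose in shRRM2 against control, and all 4 were lower in shRRM2/shp16 than in shRRM2. The shares of all tested genes were 29.0% called higher in the first comparison and 29.1% lower in the second. ATP6AP1, an accessory subunit, was at 107 ± 1.59, 166 ± 1.86 and 130 ± 3.4 CPM in control, shRRM2 and shRRM2/shp16. ATP6V1A, the catalytic subunit, was at 90.1 ± 2.94, 108 ± 3.71 and 94.1 ± 2.87 CPM, and ATP6V0D1, of the membrane sector, at 92.1 ± 3.27, 105 ± 3.39 and 73.2 ± 2.0 CPM. These 3 rose in shRRM2, by 0.63 ± 0.03, 0.27 ± 0.04 and 0.18 ± 0.04, and fell in shRRM2/shp16 against shRRM2, with -0.35 ± 0.03, -0.20 ± 0.04 and -0.52 ± 0.04. ATP6V1H, which joins the 2 sectors, was nearly level at 46.0 ± 1.32, 47.4 ± 3.01 and 43.4 ± 2.34 CPM. Its decrease against shRRM2 (-0.13 ± 0.05, adjusted p 0.0292) was not past the threshold with DESeq2 (-0.14), with no filter on low counts (-0.11), or without shRRM2 b (-0.12), shRRM2 c (-0.10) or shRRM2/shp16 a (-0.08). On the authors' RPKM values in 9 columns, limma did not call ATP6V0D1 in shRRM2 against control (0.15), nor ATP6V1A (-0.08) or ATP6V1H (0.00) in shRRM2/shp16 against shRRM2.

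Of the 3 transcription factor genes, MITF rose in shRRM2, and MITF and TFE3 were lower in shRRM2/shp16 than in shRRM2. The shares of all tested genes were 29.0% called higher in shRRM2 against control and 29.1% lower in shRRM2/shp16 against shRRM2. TFEB, the best-known regulator of lysosome genes, was at 2.47, 2.96 and 2.68 CPM in control, 2.60, 3.23 and 2.47 in shRRM2 and 1.90, 2.34 and 2.37 in shRRM2/shp16. None of its 3 comparisons passed the threshold, with 0.04 ± 0.18 in shRRM2 against control (adjusted p 0.852) on 36 reads at the lowest. TFE3, its close relative, was at 108, 106 and 105 CPM in control, 100, 109 and 110 in shRRM2, and 92.3, 91.4 and 89.4 in shRRM2/shp16. Per length TFE3 exceeded TFEB in each group, with 24.8 against 0.479 RPKM in control. TFE3 was level in shRRM2 (0.00 ± 0.04, adjusted p 0.958) and lower in shRRM2/shp16, with -0.23 ± 0.04 against shRRM2 (2.7e-06). MITF, the third of this family, was at 25.7, 26.3 and 28.3 CPM in control, 34.7, 38.4 and 35.1 in shRRM2 and 20.2, 20.1 and 19.7 in shRRM2/shp16. Its groups were separate, with 0.44 ± 0.06 for shRRM2 over control and -0.85 ± 0.06 in shRRM2/shp16 against shRRM2 (adjusted p 3.1e-08 and 9.1e-16). With limma on all 9 RPKM columns the TFE3 decreases were -0.09 against shRRM2 and -0.12 against control and were not called.

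Transcript levels say nothing of where these factors lie in the cell. Of the 7 tested genes with CACGTG in a promoter window, 5 were called higher and 1 lower in shRRM2 against control (median log2 fold change 0.23), where 29.0% of all tested genes were higher and 31.8% lower. Of the 25 tested genes with windows and no CACGTG, 16 were higher and 4 lower (median 0.32). In shRRM2/shp16 against shRRM2 the 7 had 1 higher and 6 lower (median -0.25), and the 25 had 10 higher and 12 lower (median -0.21), where 31.9% and 29.1% of all tested genes were. These groups of 7 and 25 were not tested against each other. The one that was higher was GAA, whose window is printed above with the CLEAR form, while MCOLN1, with the same form, was lower.

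Of the 8 autophagy genes, 7 rose in shRRM2 against control, and 5 were higher and 2 lower in shRRM2/shp16 than in shRRM2. Among all tested genes 29.0% were called higher in the first comparison, and 31.9% higher and 29.1% lower in the second. SQSTM1 (ENSG00000161011; chromosome 5, 179806398 to 179838078, plus strand) encodes p62, the receptor that brings ubiquitinated cargo to autophagosomes. It was at 308, 294 and 294 CPM in control, 361, 380 and 353 in shRRM2 and 627, 619 and 618 in shRRM2/shp16. Its groups were separate, with 0.29 ± 0.03 for shRRM2 over control, 0.77 ± 0.03 in shRRM2/shp16 against shRRM2 and 1.05 ± 0.03 in shRRM2/shp16 against control (adjusted p 2.5e-11, 3.5e-26 and 2.4e-31). MRNIP, on the opposite strand, covers 20.7% of its exonic bases and was read at 11.7 CPM on average.

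GABARAPL1 and MAP1LC3B encode 2 of the small ubiquitin-like proteins that are attached to the autophagosome membrane. GABARAPL1 was at 79.8, 77.0 and 75.8 CPM in control, 148, 151 and 156 in shRRM2 and 210, 210 and 208 in shRRM2/shp16. It rose at each step without overlap, by 0.97 ± 0.04 and then 0.46 ± 0.03 on the log2 scale (adjusted p 4.6e-26 and 2.2e-16). MAP1LC3B was at 92.3, 98.4 and 102 CPM in control, 128, 122 and 134 in shRRM2 and 96.3, 98.9 and 104 in shRRM2/shp16. Only its shRRM2 libraries were raised among these 9, with 0.40 ± 0.04 against control and -0.36 ± 0.04 for shRRM2/shp16 against shRRM2 (adjusted p 1.8e-11 and 2.2e-10). Both genes have near-identical copies elsewhere in the genome, and reads shared with those were not counted.

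WIPI1, which marks the membrane where autophagosomes form, was at 54.1 ± 2.26, 92.5 ± 2.17 and 106 ± 3.32 CPM in control, shRRM2 and shRRM2/shp16. ARSG covers 24.3% of its exonic bases on the opposite strand and was read at 6.03 CPM on average. ULK1, the kinase that starts autophagy, was at 39.0 ± 1.84, 50.6 ± 0.486 and 55.2 ± 1.59 CPM. BECN1, of the lipid kinase complex, was at 63.4 ± 5.43, 70.7 ± 1.34 and 78.3 ± 4.52 CPM. All 3 were called higher at both steps, WIPI1 by 0.77 ± 0.04 and 0.20 ± 0.04, but the small steps were not stable. ULK1 in shRRM2/shp16 against shRRM2 (0.12 ± 0.05) was not past the threshold with DESeq2 (0.12) or without shRRM2 a (0.12), shRRM2/shp16 a (0.11) or shRRM2/shp16 b (0.12). BECN1 lost its call in shRRM2 against control (0.15 ± 0.05) without control b (0.10), with no filter on low counts (0.11) and with limma on 9 RPKM columns (0.14), and against shRRM2 (0.15 ± 0.05) without shRRM2/shp16 b (0.11).

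ATG5 and ATG7 belong to the machinery that attaches those small proteins to lipid. ATG7, the activating enzyme, was at 26.1 ± 0.624, 32.6 ± 1.25 and 28.1 ± 1.21 CPM, and was highest in shRRM2. ATG5 was at 25.7 ± 2.06, 20.3 ± 1.05 and 20.8 ± 0.695 CPM, and was the 1 autophagy gene of the 8 that fell in shRRM2, with -0.34 ± 0.07 (adjusted p 5.0e-05). With limma on 9 RPKM columns the decreases of ATG7 against shRRM2 (-0.12) and of ATG5 in shRRM2/shp16 against control (-0.17) were not called. VGLL4 covers 18.1% of the exonic bases of ATG7 on the opposite strand, at 49.4 CPM on average.

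**Figure D4:**
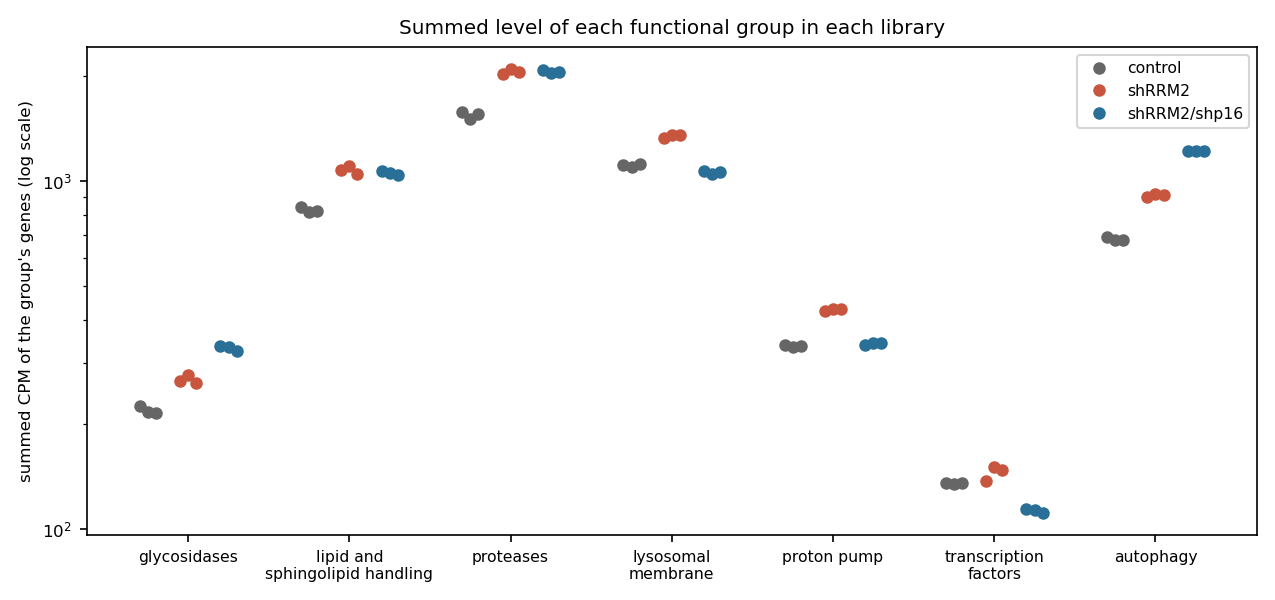
Summed TMM-scaled CPM (y axis, log scale) of the genes of each role (x axis) in each of the 9 libraries, coloured by group. Autophagy genes go from a mean of 682 to 911 to 1218 CPM, while lysosomal membrane genes go from 1109 to 1348 to 1058 and proton pump genes from 335 to 426 to 341.

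Summed over all 44 genes, the level was 4926, 4778 and 4863 CPM in control, 6164, 6334 and 6200 in shRRM2 and 6229, 6148 and 6153 in shRRM2/shp16. The 2 hairpin groups overlapped in this sum and lay above control. Its parts differed, since in shRRM2/shp16 the autophagy genes and glycosidases were at their highest. The membrane genes lay at 1044 to 1068 CPM there, below the 1093 to 1120 of control, and the proton pump genes at 339 to 343, against 333 to 337 in control. These sums weigh abundant genes such as CD63 and CTSB most. CD63 and LAMP1 made up most of the membrane sum, and the direction of both against control in shRRM2/shp16 differed between methods. In the autophagy sum SQSTM1 went from 365 CPM in shRRM2 to 621 in shRRM2/shp16, while MAP1LC3B and ATG7 fell. Among the glycosidases GAA, MANBA and GUSB rose over that step, FUCA1 fell, and GLB1 and HEXA did not pass the threshold.

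Other genes of the same pathways were taken from 2 further lists. Of 62 other lysosome genes 57 were tested. In shRRM2 against control 34 were higher and 7 lower (59.6% and 12.3%), with a median log2 fold change of 0.25, where 29.0% and 31.8% of all tested genes were. The 7 lower became 3 with DESeq2, 4 with at least 10 counts in every library, and 2 and 3 with limma on 9 and 8 RPKM columns. SLC17A5, the sialic acid exporter, rose from 54.8 to 116 CPM (1.08 ± 0.04 on the log2 scale) and ACP5, the tartrate-resistant phosphatase, from 0.945 to 3.42 CPM (1.83 ± 0.21). The lowest were CTSV, from 1.40 to 0.811 CPM (-0.76 ± 0.32), and the aspartylglucosaminidase AGA, from 12.8 to 7.58 CPM (-0.75 ± 0.10). CTSV was barely read, on 9 reads at the lowest, and its control and shRRM2 libraries overlapped. In shRRM2/shp16 against shRRM2, 24 were higher and 20 lower (42.1% and 35.1%, against 31.9% and 29.1% of all genes; median 0.02). LAPTM4A, a lysosomal membrane protein, went from 234 to 496 CPM (1.08 ± 0.03) and the sulfatase ARSG from 4.79 to 9.34 (0.96 ± 0.12), while the phospholipase PLA2G15 (-0.95 ± 0.06) and the proton pump subunit ATP6V0A1 (-0.87 ± 0.04) were lowest. Against control, 39 were higher and 9 lower in shRRM2/shp16 (68.4% and 15.8%, against 30.0% and 32.4% of all genes; median 0.21). The ends of that range were ACP5 (1.60 ± 0.22) and ARSG (1.22 ± 0.12), and CTSV (-0.81 ± 0.31) and PLA2G15 (-0.63 ± 0.06).

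Of 45 other autophagy genes 43 were tested. In shRRM2 against control 21 were higher and 8 lower (48.8% and 18.6%), against 29.0% and 31.8% of all genes, with a median log2 fold change of 0.12. Limma on 8 RPKM columns called 5 lower in place of 8. MAP1LC3A, a relative of MAP1LC3B, rose from 10.8 to 15.9 CPM (0.57 ± 0.09) and EPG5, a tether for lysosome fusion, from 191 to 276 CPM (0.53 ± 0.03). The protease ATG4C (-0.57 ± 0.12) and the mitophagy receptor BNIP3 (-0.45 ± 0.04) were lowest. In shRRM2/shp16 against shRRM2, 14 were higher and 14 lower (median 0.01). That is 32.6% each way, near the 31.9% and 29.1% of all tested genes, and limma on 9 and 8 RPKM columns called 7 and 9 lower. EPG5 was lowest there, from 276 to 129 CPM (-1.10 ± 0.03), followed by MAP1LC3A (-0.85 ± 0.10). STX17 (0.63 ± 0.09), a fusion protein, and RB1CC1 (0.60 ± 0.04), a partner of ULK1, were highest. Against control, 19 were higher and 7 lower (44.2% and 16.3%, against 30.0% and 32.4% of all genes). Limma on 9 or 8 columns called 4 lower. RB1CC1 (1.07 ± 0.04) and VAMP8 (0.77 ± 0.29) were highest, and BNIP3 (-0.70 ± 0.04) and EPG5 (-0.57 ± 0.03) lowest. VAMP8 was barely read, on 9 reads at the lowest, with control b at 0.503 CPM, below the cutoff of 0.557.

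The authors' deposited table holds a comparison of the 2 hairpin groups. Of the 44 genes, 22 have a q-value under 0.05 in the authors' deposited table, 9 higher and 13 lower. All 22 were also called from the counts in the same direction, and 14 more were called from the counts only. The authors' deposited table has GLB1 at -0.06 on the log2 scale (q-value 0.805) and CTSS at 2.23 (q-value 4.4e-04). Among the genes called from the counts only, the authors' deposited table lists NPC1 at 0.20 (q-value 0.465), GUSB at 0.45 (0.117) and CTSB at 0.00 (0.986). The column of shRRM2 c in that table does not match its count file, and the effect of this on the authors' test was not tested.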

How the data were processed

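RNA of 9 IMR90 libraries was sequenced after ribosomal depletion with a stranded kit, per the labels' protocols. Per library, the authors deposited unnormalised counts of reads by Ensembl identifier. The submitters' processing notes name TopHat2 2.0.9, Cufflinks 2.0.2, Cuffdiff and GRCh38; neither the counting strand nor an annotation version is given in the sources used here. Tally lines without a gene were left out; ambiguous reads were 3.74% to 6.02% of unique ones. The authors also deposited log2 RPKM values per library, on a scale of log2(x + 1) with x in CPM per base, and, per the file headers, their log2 fold change with p-values and q-values. Of those log2 RPKM columns 8 equal the counts over a fixed length (100% of 8233 genes within 0.001), which gave the lengths used here; that of shRRM2 c does not (0.765%). Columns left unmatched to a sample numbered 0.

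Counts were tested with edgeR 4.0.16 (filterByExpr, TMM, glmQLFit, glmQLFTest) in R 4.3.3, with all 9 libraries in 1 fit and 6 residual degrees of freedom. Tests were two-sided, adjusted by Benjamini-Hochberg over 16561 genes at a threshold of 0.05. The members and lists were chosen with earlier results of these data known. All 44 members are named; those with the 3 highest and 3 lowest called changes of a comparison, and 7 fixed ones, are given by library, and of the other lists the 2 highest and 2 lowest called. Positions are from GENCODE 29. No 2 libraries of a group agreed within counting noise (chi-square per degree of freedom 1.44 to 2.95). Alternatives were RLE factors, DESeq2 1.42.0, 2 count filters, the 6 libraries compared, a replicate block, each library left out, and limma 3.58.1 on log2(RPKM + 1) recovered from the authors' values. The pipeline was tested on simulated data.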

Additional observations from a re-analysis of the deposited data

How the results depend on the processing

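Over 1761 values of single genes under the alternatives, 1695 kept their direction and their side of the threshold, 46 lost the call, 16 gained one and 4 reversed. Reversed were GAA in shRRM2 against control (0.042 with limma on 9 RPKM columns) and, in shRRM2/shp16 against control, CD63 (0.022 with 9 and with 8 columns) and LAMP1 (0.066 with 8 columns). Limma on 9 columns called 14 members lower in shRRM2/shp16 against shRRM2 and 4 lower in shRRM2/shp16 against control, in place of 22 and 9. Over the 3 comparisons, 14 member calls were lost and 4 gained with the 9 columns. With the 8 columns that match their count files, 5 were lost and 7 gained. Other lysosome genes lower in shRRM2 numbered 3 with DESeq2, 4 with at least 10 counts in every library, and 2 and 3 with limma on 9 and 8 columns, in place of 7. Other autophagy genes lower numbered 5 with 8 columns in shRRM2 against control, 7 and 9 (9 and 8 columns) in shRRM2/shp16 against shRRM2, and 4 and 4 in shRRM2/shp16 against control. Further causes were not tested. These RPKM values carry no TMM factor. In shRRM2/shp16 against control the median log2 fold change of all tested genes was 0.059 with limma on them and 0.015 in the main fit. The median shift of values from the main fit to limma was larger there, at 0.09. TMM factors were 0.961 to 0.972 in control and 1.037 to 1.040 in shRRM2/shp16. The part of this scaling in the lost calls was not tested.

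With the replicate letter as a block, 30 members were higher and 5 lower in shRRM2 against control, and the block changed no member's call. Deviations from the group means of libraries with the same letter correlated at -0.02 to 0.049 over genes, so no deviation shared by letter was seen. Whether libraries of the same letter were handled together cannot be told from this. Leaving out any library moved no count of calls by over 1.5 times. The depth limits CTSS in control, CTSH and TFEB most, which rest on the fewest reads among the tested members.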
